A study of Arabidopsis thaliana with 12 samples.

Results

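The chloroplast-encoded genes of Arabidopsis thaliana were taken as every row of the count and TPM tables whose gene ID begins with ATCG, which gave 133 of 27436 listed genes. They comprised 86 protein-coding IDs, 8 ribosomal RNA IDs, 37 IDs with the length of a transfer RNA and 2 IDs that the files and the reference do not name. Messenger RNA was sequenced from whole, untreated 7-day-old seedlings of ecotype Col-0 in 4 genotypes with 3 libraries each. WT is the wild type, pnet2_ac and pnet2_bc are double mutants and pnet2_abc is the triple mutant of PNET2A, PNET2B and PNET2C, which encode proteins of the nuclear membrane. All were grown on medium with 1% sucrose, so every genotype had an outside carbon source, and about 50 mg of plants went into each RNA preparation. The labels give neither the alleles nor whether the 3 libraries of a genotype are separate batches of seedlings, so p-values here reflect the spread among these libraries alone.

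The plastid genome keeps genes for parts of the photosynthetic complexes, for part of the plastid ribosome and for the core of a bacterial-type RNA polymerase, encoded by rpoA, rpoB, rpoC1 and rpoC2. That polymerase works with sigma factors and associated proteins made in the nucleus, and it is known for transcribing photosynthesis genes as seedlings turn green. A phage-type polymerase, also made in the nucleus, is known for transcribing rpoB and its neighbours, clpP1, accD and others. Many plastid genes stand in runs that are copied into one long RNA, and plastid transcripts mostly lack stable poly(A) tails. How the libraries were enriched for messenger RNA is not given in the sources used here, so plastid levels are compared between genotypes and not read as the content of a cell.

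Libraries held 65758625 to 115881203 counts in all, of which 26764 to 102545 fell on plastid genes and 6887 to 22663 on plastid protein-coding genes. Each of the 133 genes had a count in at least 1 library, 85 had one in every library, and 95 passed the filter on low counts and were tested among 23330 genes. Where a library shows 0 counts, up to 3 counts cannot be told from 0. That limit is 0.0262 to 0.0436 CPM (counts scaled to 1000000 after TMM) and covers counting error only. The genes carrying the mutations are not named in the reference. Of the 3 genes that it annotates with the domain DUF2215, AT3G49840 stood at 9.36 ± 1.36 CPM in WT and 2.17 ± 0.127 CPM in pnet2_abc (SD, n = 3), AT5G67610 at 21.6 ± 2.46 and 11.2 ± 0.705 CPM, and AT1G28760 at 3.97 ± 0.444 and 47.4 ± 6.0 CPM. Which of them is PNET2A, PNET2B or PNET2C is not given in the sources used here, so these levels are no check of the genotype labels.

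Plastid genes took a smaller share of the counts in pnet2_abc than in the other genotypes, while the mitochondrial shares overlapped. Per 1000000 counts, plastid genes held 930.8, 1032 and 1037 in the WT libraries, 884.9, 702.8 and 1012 in pnet2_ac, 877.6, 955.9 and 848.8 in pnet2_bc, and 405.2, 548.3 and 512.3 in pnet2_abc. The 3 pnet2_abc libraries lay below all 9 others, and their mean was 0.489 times that of WT, 488.6 ± 74.4 against 999.9 ± 59.9 (SD, n = 3). The double mutants overlapped WT, at 0.867 and 0.894 times its mean, and pnet2_ac replicate 2 was the lowest of those 9 libraries. The 130 mitochondrial IDs held 72.8 ± 5.55 per 1000000 in WT and 80.0 ± 10.5 in pnet2_abc (SD, n = 3), and these ranges overlapped.

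Ribosomal RNA made up 71.6% to 82.8% of the plastid counts in each library. It held 760.1, 854.1 and 811.7 per 1000000 in WT and 290.3, 442.6 and 412.4 in pnet2_abc, a mean of 0.472 times WT. In pnet2_ac it held 687.4, 523.3 and 794.7, overlapping WT, with a mean of 0.827 times WT. The pnet2_bc libraries, at 662.1, 734.3 and 647.0, lay below all WT libraries, with a mean of 0.842 times WT. Protein-coding genes held 168.7, 175.5 and 222.8 per 1000000 in WT and 113.6, 104.7 and 98.7 in pnet2_abc, 0.559 times WT. Both shares were lower in each pnet2_abc library than in any other library. In a whole seedling, fewer green cells and less plastid RNA per cell cannot be told apart. The summed level of 6 markers of green tissue was 24470 to 30230 CPM in the other 9 libraries and 7358 to 8094 CPM in pnet2_abc, with all 6 lower by the test. The summed level of 20 root markers was 194.2 to 265.5 CPM in the other 9 and 118.1 to 136.8 CPM in pnet2_abc, with 6 of the 20 lower and 1 higher, beside the 32% of all genes tested that were called lower, and no marker list was at 0. Median log2 fold changes against WT were -2.1 for the green markers and -0.33 for the root markers. The root values ran from -5.76 to 1.89, with 13 not called. The part of either tissue in the plastid shares was not tested.

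**Figure D1:**
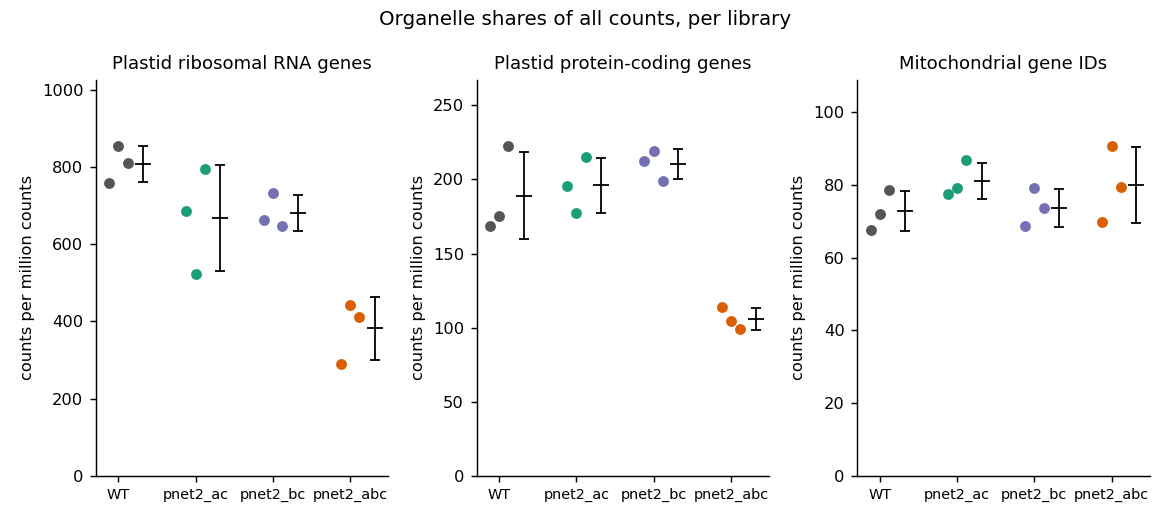
Counts on plastid ribosomal RNA genes, plastid protein-coding genes and mitochondrial genes per 1000000 counts (y axis), with 1 point per library and the mean ± SD of 3 libraries beside them. The pnet2_abc libraries lie below all 9 others for both plastid classes and overlap them for the mitochondrial genes.

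Gene by gene, plastid transcripts were lower in pnet2_abc and no tested plastid gene was higher. In the comparison with WT, 40 of the 95 tested genes were called lower and 0 higher by edgeR (quasi-likelihood test, adjusted p under 0.05 over all genes tested), where 32% of all 23330 genes tested were called lower and 32.5% higher. The median log2 fold change was -1.13 over the 95 genes and 0.01 over all genes tested, and 88 of the 95 values were below 0. Against the double mutants, 33 plastid genes were lower than in pnet2_ac (of all genes, 32.2% lower and 30.7% higher) and 41 lower than in pnet2_bc (32.3% lower and 31.8% higher), again with 0 higher, and the medians were -1.07 and -1.17. These 3 comparisons share the pnet2_abc libraries. With identical copies of the inverted repeat summed, 35 of 86 genes were lower than in WT. DESeq2 called 42, 34 and 42 plastid genes lower and 0 higher.

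No plastid gene passed the test in a double mutant. Against WT edgeR called 0 of 95 in pnet2_ac, where 1.14% of all genes tested were called, and 0 of 95 in pnet2_bc, where 0.643% were. At an unadjusted p under 0.05 the counts were 2 and 1, and DESeq2 called 0 in both. The medians were -0.07 and 0.14. In pnet2_ac the 2 genes were rrn23S.1, with a log2 fold change of -0.36 ± 0.153 (SE, edgeR adjusted p = 0.291), and rpoB, at 0.28 ± 0.129 (SE, edgeR adjusted p = 0.337). In pnet2_bc it was psbK, a small photosystem II protein, at 0.78 ± 0.343 (SE, edgeR adjusted p = 0.421), and these 3 genes were chosen after their values were seen.

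Of the photosystem genes, 11 of the 19 tested fell in pnet2_abc against WT, 57.9% beside 32% of all genes tested. They were 3 of 5 in photosystem I and 8 of 14 in photosystem II. The median over the 19 photosystem genes was -1.35. The highest of them by counts was psbA, for the D1 reaction-centre protein of photosystem II, with 16.6, 13.5 and 18.1 CPM in WT, 12.6, 15.10 and 17.1 in pnet2_ac, 17.1, 16.7 and 15.6 in pnet2_bc, and 6.87, 6.81 and 4.58 in pnet2_abc. All 3 pnet2_abc libraries stood below every other library, and the log2 fold change against WT was -1.40 ± 0.170 (SE, edgeR adjusted p = 7.64e-06). The largest fall in photosystem II was that of psbE, an apoprotein of cytochrome b559, from 1.116, 1.525 and 0.9986 CPM in WT to 0.2998, 0.213 and 0.434 CPM in pnet2_abc (-1.93 ± 0.529, edgeR adjusted p = 0.00593). The antenna proteins psbB and psbC and the D2 protein psbD fell by 1.30, 1.36 and 1.23 on the log2 scale. The small subunit gene psbM did not pass the test, with 1.90, 1.35 and 2.01 CPM in WT and 1.104, 1.39 and 0.977 CPM in pnet2_abc (edgeR adjusted p = 0.0855), but did without WT replicate 2 (adjusted p = 0.0487).

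In photosystem I, psaA and psaB encode the reaction-centre pair and psaJ a small membrane subunit. In psaJ the WT libraries had 4.94, 4.62 and 7.14 CPM, pnet2_ac 2.36, 5.47 and 4.604, pnet2_bc 4.42, 4.27 and 3.601, and pnet2_abc 1.73, 2.03 and 1.15. The groups of WT and pnet2_abc did not overlap, and psaJ fell by 1.77 on the log2 scale (SE 0.319, edgeR adjusted p = 0.000281). psaB and psaA fell by 1.22 and 0.86. psaC, for the subunit that binds the terminal iron-sulphur clusters, had 0.0394, 0.174 and 0.378 CPM in WT and 0.164, 0.142 and 0.289 in pnet2_abc and did not pass the test (log2 fold change 0.01 ± 1.02, edgeR adjusted p = 0.993); at this depth a change of the size seen in psaJ was not detectable in psaC.

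Per length, psaJ and rpl32, for a protein of the large ribosomal subunit, had the highest level of the protein-coding plastid genes in WT, at 59.1 ± 13.1 and 99.9 ± 20.6 TPM (SD, n = 3). TPM in pnet2_abc was 20.2 ± 5.36 for psaJ and 53.8 ± 8.82 for rpl32. This order rests on division by the listed length. Across the 86 protein-coding genes, Spearman's rho of length with the WT TPM was -0.3, a description without a test. Neither gene led by counts, with WT means of 408 for psaJ and 808 for rpl32 against 1624 for atpB. psaJ and rpl32 are short reading frames, of 135 and 159 bases, and are shown whole because they lead the order by TPM. The sequences are from the RefSeq plastid sequence of assembly TAIR10.1 (psaJ at Pltd:66929-67063 and rpl32 at Pltd:113449-113607, plus strand, 1 exon each), with the start and stop codons in capitals.
psaJ: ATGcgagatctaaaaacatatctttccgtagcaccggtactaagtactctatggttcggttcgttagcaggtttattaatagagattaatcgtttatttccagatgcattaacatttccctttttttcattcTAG
rpl32: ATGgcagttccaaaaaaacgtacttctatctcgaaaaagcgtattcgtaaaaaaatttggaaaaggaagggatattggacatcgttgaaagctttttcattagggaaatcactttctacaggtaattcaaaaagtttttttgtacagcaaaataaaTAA

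**Figure D2:**
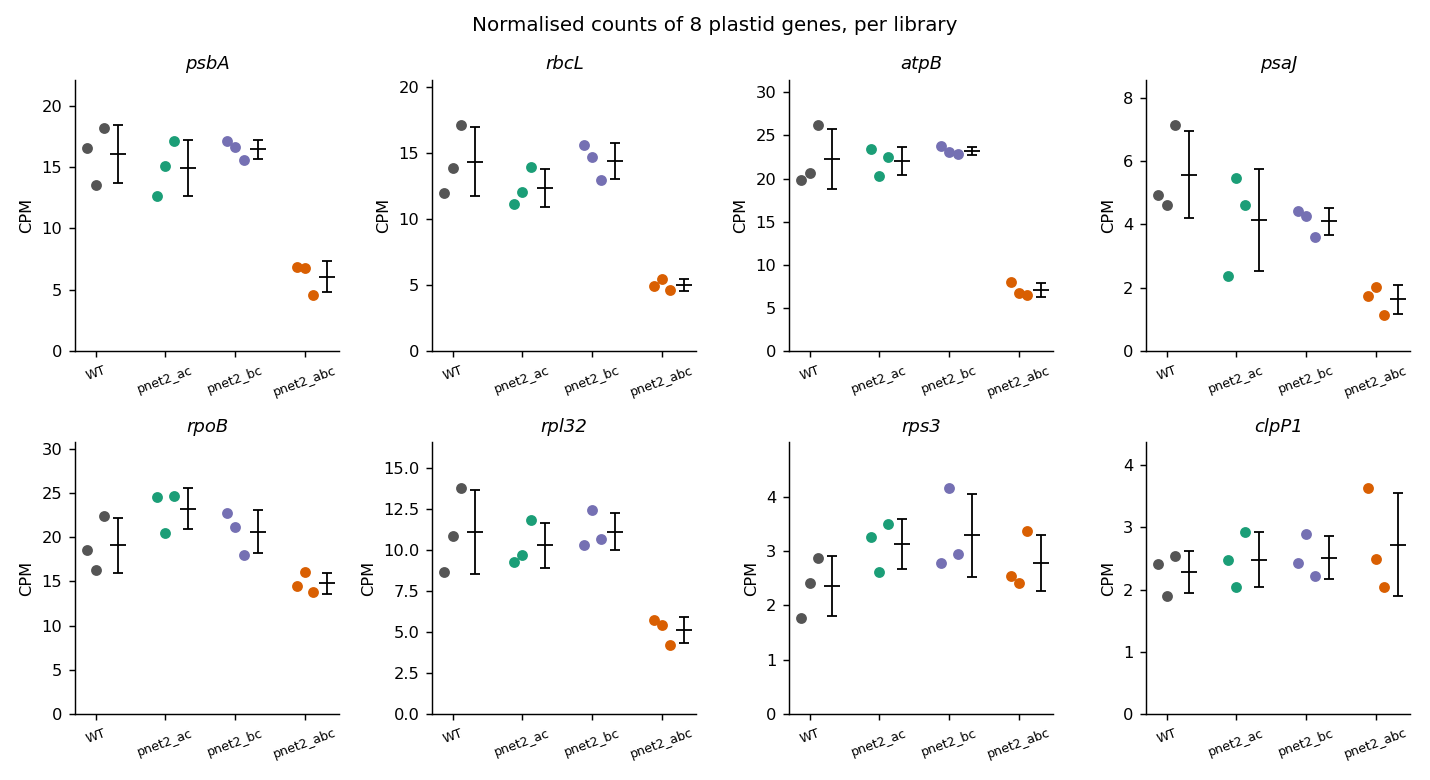
CPM of 8 plastid genes (y axis) in each library, with the mean ± SD of 3 libraries beside the points. For psbA, rbcL, atpB, psaJ, rpl32 and, by a narrow gap, rpoB the pnet2_abc libraries lie below every other library. For rps3 and clpP1 they overlap WT.

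All 6 genes of the plastid ATP synthase fell, where 32% of all genes tested were called lower. Their log2 fold changes were -1.65 to -1.06, with a median of -1.45. atpB, for the beta subunit of the catalytic head, was the most counted of them, with 19.8, 20.6 and 26.2 CPM in WT, 23.4, 20.3 and 22.5 in pnet2_ac, 23.75, 23.06 and 22.83 in pnet2_bc and 8.01, 6.81 and 6.49 in pnet2_abc. The pnet2_abc libraries did not overlap any other, and atpB fell by 1.65 on the log2 scale (SE 0.121, edgeR adjusted p = 5.77e-08). atpE, for the epsilon subunit, which overlaps atpB by 4 bases on the same strand, fell by 1.53, and atpA, for the alpha subunit, by 1.39. rbcL, for the large subunit of Rubisco, the carbon-fixing enzyme, had 11.99, 13.91 and 17.15 CPM in WT and 4.96, 5.50 and 4.63 CPM in pnet2_abc and fell by 1.51 (SE 0.149, edgeR adjusted p = 1.04e-06). Of the 6 genes of the cytochrome b6f complex, petA, for cytochrome f, and petD, for subunit IV, fell by 1.58 and 1.37. In petD the groups overlapped, with 2.364, 0.8715 and 0.6073 CPM in WT and 0.2998, 0.6383 and 0.5425 CPM in pnet2_abc. petA and petD are 33.3% of the complex, near the 32% of all genes tested that were called lower. The other 4 did not pass the test, among them petL with 0.328, 0.363 and 0.567 CPM in WT and 0.204, 0.0709 and 0.169 CPM in pnet2_abc (edgeR adjusted p = 0.0729).

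The NDH genes encode subunits of a complex that passes electrons from ferredoxin back to plastoquinone. All 12 IDs were tested, 2 of them identical copies of ndhB. 3 IDs were called lower, and all 12 log2 fold changes were below 0, from -2.80 to -0.40 with a median of -0.99. With the copies summed, 2 of 11 genes were called, 18.2% beside 32% of all genes tested, with a median of -0.92. They were low: in WT their TPM means ran from 0.139 to 1.76, against 0.106 to 59.1 for the photosystem genes, with medians of 0.727 and 5.30. ndhK fell from 0.788, 0.872 and 0.837 CPM in WT to 0.273, 0.241 and 0.229 CPM in pnet2_abc, without overlap (-1.74 ± 0.439, SE, edgeR adjusted p = 0.00348). ndhC had 0.368, 0.305 and 0.607 CPM in WT and 0.0681, 0.000 and 0.109 CPM in pnet2_abc (-2.80 ± 1.105, SE, edgeR adjusted p = 0.0400). Its call ended when WT replicate 1 or 3, pnet2_ac replicate 3, pnet2_bc replicate 2 or pnet2_abc replicate 1 or 2 was left out, with adjusted p of 0.0559, 0.101, 0.0520, 0.0504, 0.0830 and 0.0911. The third, ndhB.1, is 1 of 2 identical copies in the inverted repeat, and with the copies summed ndhB did not pass (-1.41 ± 0.626, SE, edgeR adjusted p = 0.0634).

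Of 24 tested ribosomal protein IDs 6 were called lower, all among the 11 of the large subunit, which had a median of -1.0. These 6 include both identical copies of rpl2 and of rpl23. With copies summed, 4 of 20 genes fell, 20% beside 32% of all genes tested, and the 4 were rpl2, rpl14, rpl23 and rpl32 of 9 in the large subunit, with a median of -0.73. In the small subunit 0 of 13 IDs, or 0 of 11 genes with copies summed, were called by edgeR in pnet2_abc against WT, also 0 at an unadjusted p under 0.05, with values from -1.68 to 1.08 and a median of -0.71. The difference between the subunits was not tested. Scaled to all plastid counts, mostly ribosomal RNA, rpl32 stood at 0.16, and scaled to plastid protein-coding counts at -0.08, neither called. With the main scaling, rpl32 had 8.67, 10.8 and 13.8 CPM in WT, 9.24, 9.70 and 11.8 in pnet2_ac, 10.3, 12.4 and 10.6 in pnet2_bc and 5.74, 5.42 and 4.22 in pnet2_abc, and fell by 1.11 on the log2 scale (SE 0.184, edgeR adjusted p = 0.000131). rpl23, summed over its identical copies, fell by 1.82 (SE 0.414, edgeR adjusted p = 0.00170) and rpl2 by 1.11 (SE 0.227, edgeR adjusted p = 0.000744). rps3, the small subunit gene with the most counts, had 1.77, 2.41 and 2.87 CPM in WT and 2.55, 2.41 and 3.36 CPM in pnet2_abc. Those groups overlapped, and its log2 fold change was 0.24 ± 0.258 (SE, edgeR adjusted p = 0.440).

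The 4 polymerase genes were all below 0 on the log2 scale, and 3 passed the test, 75% beside 32% of all genes tested. Scaled to all plastid counts, rpoA, rpoB, rpoC1 and rpoC2 stood at 0.27, 0.88, 0.77 and 0.09. Scaled to plastid protein-coding counts, they stood at -0.02, 0.66, 0.54 and -0.19, with only rpoB called. rpoB, for the beta subunit and with the most counts of the 4, had 18.5, 16.3 and 22.4 CPM in WT, 24.5, 20.5 and 24.7 in pnet2_ac, 22.7, 21.1 and 18.0 in pnet2_bc and 14.49, 16.04 and 13.78 in pnet2_abc. The pnet2_abc libraries lay below WT by a narrow gap, and rpoB fell by 0.37 (SE 0.13, edgeR adjusted p = 0.0238), the smallest change of the 3 called polymerase genes. That call ended without WT replicate 3, pnet2_abc replicate 1 or pnet2_abc replicate 3 (adjusted p of 0.127, 0.0592 and 0.0786) and with library size as the only scaling (-0.18, adjusted p = 0.234). Against pnet2_ac and pnet2_bc rpoB was lower by log2 values of -0.65 and -0.48 (edgeR adjusted p = 0.000650 and 0.00559). rpoC2, for the beta'' subunit, fell from 2.81, 2.70 and 2.59 CPM in WT to 1.47, 0.539 and 1.52 CPM in pnet2_abc (-1.20 ± 0.346, SE, edgeR adjusted p = 0.00829).

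rpoA, for the alpha subunit, fell by 1.04 (SE 0.393, edgeR adjusted p = 0.0331), from 1.72, 1.90 and 2.54 CPM to 1.40, 0.979 and 0.615 CPM. Its call ended without WT replicate 2 or 3 or pnet2_abc replicate 2 or 3 (adjusted p of 0.0504, 0.109, 0.0722 and 0.121). rpoC1, for the beta' subunit, had 6.21, 3.11 and 4.39 CPM in WT and 3.38, 3.603 and 3.002 CPM in pnet2_abc, with overlap (-0.46 ± 0.265, SE, edgeR adjusted p = 0.148), and passed only without WT replicate 2 (-0.67, adjusted p = 0.0385).

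Of the other protein-coding genes, clpP1, for the plastid protease subunit, did not pass the test. It had 2.42, 1.90 and 2.54 CPM in WT, 2.47, 2.04 and 2.93 in pnet2_ac, 2.43, 2.89 and 2.22 in pnet2_bc and 3.64, 2.50 and 2.04 in pnet2_abc (log2 fold change 0.25 ± 0.267, SE, edgeR adjusted p = 0.429). accD, for a subunit of the acetyl-CoA carboxylase of fatty acid synthesis, had 0.328, 0.203 and 0.445 CPM in WT and 0.0409, 0.114 and 0.133 CPM in pnet2_abc. The groups did not overlap, but accD missed the threshold (-1.75 ± 0.734, SE, edgeR adjusted p = 0.0517), and passed without WT replicate 2 (-2.0, adjusted p = 0.0480). matK, for an intron maturase, stood at -1.25 ± 0.621 (SE, edgeR adjusted p = 0.0945) and passed without WT replicate 1 (adjusted p = 0.0327). ycf4, for a photosystem I assembly factor, and cemA, for an envelope membrane protein, were the 2 genes of the 10 tested here that fell, by 2.02 and 1.25. With identical copies summed these were 22.2%, beside 32% of all genes tested. The call for ycf4 ended without WT replicate 3, pnet2_abc replicate 2 or pnet2_abc replicate 3 (adjusted p of 0.125, 0.0704 and 0.115). cemA had 1.812, 1.917 and 5.371 CPM in WT and 0.9268, 1.815 and 1.097 CPM in pnet2_abc, with overlap. ycf1.2 and the ycf2 copies, for large membrane proteins, did not pass, at -0.53, -0.25 and -0.13.

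The long ribosomal RNAs fell and the 4.5S RNA did not pass the test. With identical copies summed, rrn16S of the small subunit fell by 1.46 (SE 0.177, edgeR adjusted p = 7.83e-06) and rrn23S of the large subunit by 1.15 (SE 0.164, edgeR adjusted p = 3.60e-05). rrn4.5S stood at -0.09 ± 0.415 (SE, edgeR adjusted p = 0.859). The first copy, rrn16S.1, had 149.4, 164.6 and 165.2 CPM in WT, 130.4, 108.3 and 152.6 in pnet2_ac, 125.0, 137.9 and 127.1 in pnet2_bc and 40.3, 69.4 and 63.4 in pnet2_abc. The pnet2_abc libraries lay below all others, and among the other 9 the lowest was pnet2_ac replicate 2. Of the 37 IDs with the length of a transfer RNA, 7 were tested and 2 were called lower, 28.6% beside 32% of all genes tested. ATCG00090 fell by 1.51 (SE 0.457, edgeR adjusted p = 0.0110). The call for ATCG00200 (-2.52, edgeR adjusted p = 0.0417) held without pnet2_bc replicate 3 alone of the 12 libraries left out in turn.

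The nuclear-encoded subunits of these complexes fell without exception among the lists tested, but the regulators of greening did not. Of 7 such regulators, 5 were lower in pnet2_abc than in WT, 1 was higher and 1 was not called. Their log2 fold changes ran from -2.36 to 7.08. In pnet2_abc against WT 32% of all genes tested were called lower. So were all 12 nuclear genes of photosystem I, 11 of photosystem II, 15 of NDH, 33 of the plastid ribosome and 4 of Rubisco. Their medians were -1.93, -1.81, -2.42, -1.90 and -2.40, in that order. Beside them stand plastid-encoded medians of -1.22 for photosystem I, -1.35 for photosystem II, -0.99 for NDH and -0.73 for the ribosomal proteins. The plastid gene of Rubisco, rbcL, stood at -1.51. The 2 nuclear genes of cytochrome b6f and 3 of ATP synthase were also lower, with medians of -1.75 and -1.59. The plastid-encoded medians of these 2 complexes were -1.02 and -1.45, so the gap was narrow for ATP synthase. The nuclear genes have more counts, so the counts of called genes in the 2 genomes are not alike in precision. All 6 sigma factors of the plastid-encoded polymerase were lower, with log2 fold changes from -2.50 to -1.28, and so were all 13 of its associated proteins, with a median of -1.40. In pnet2_ac and pnet2_bc none of these genes passed, where 1.14% and 0.643% of all genes tested were called.

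Of the sigma factors SIGA fell from 266.6 ± 24.6 CPM in WT to 77.6 ± 6.99 CPM in pnet2_abc (SD, n = 3), and SIGE, known for its part in the blue-light control of psbD, from 100.6 ± 16.9 to 28.3 ± 8.02 CPM. The phage-type polymerases went in different directions. SCA3, a plastid one, fell from 73.3 ± 7.17 to 39.2 ± 4.5 CPM (log2 fold change -0.90 ± 0.099, SE, edgeR adjusted p = 2.91e-06). AT5G15700, annotated as a DNA/RNA polymerase, rose from 11.3 ± 0.934 to 22.7 ± 1.68 CPM (1.01 ± 0.167, SE, edgeR adjusted p = 0.000142). MGP3, a mitochondrial one, stood at 41.2 ± 2.78 and 44.0 ± 0.891 CPM (edgeR adjusted p = 0.280).

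**Figure D3:**
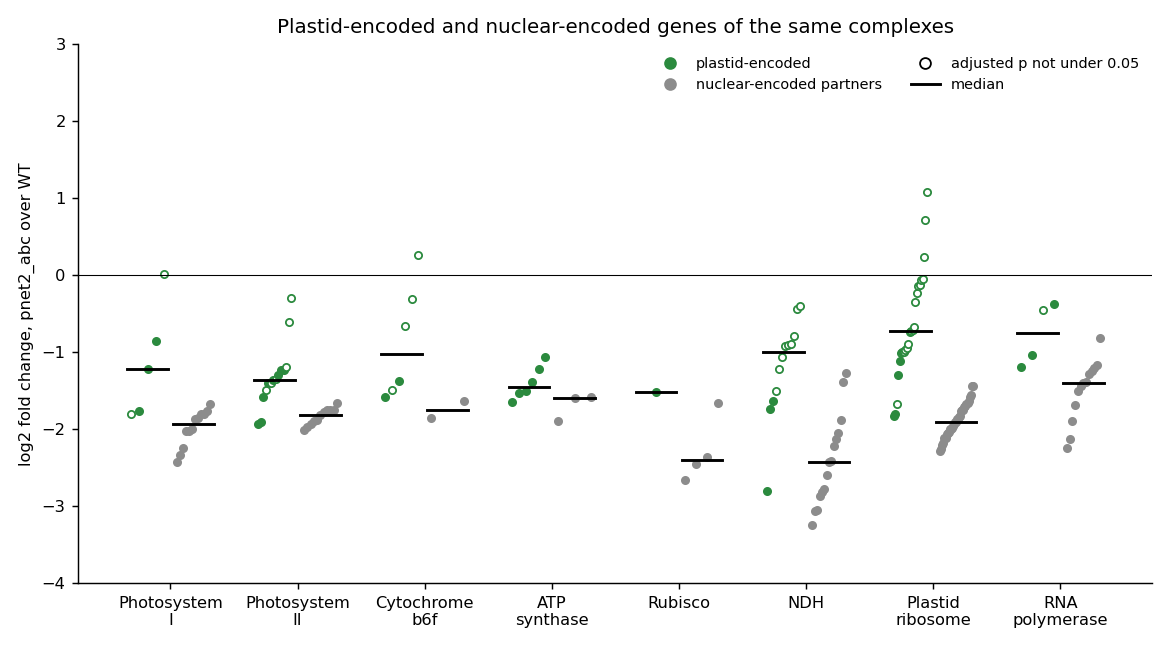
Log2 fold change of pnet2_abc over WT (y axis) for plastid-encoded genes (green) and nuclear-encoded partners (grey) of each complex, 1 point per gene, with filled points called at an adjusted p under 0.05 and bars for medians. The RNA polymerase partners are the 13 associated proteins; the nuclear points are all filled, while open green points reach 1.08 among the ribosomal proteins.

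Along the plastid genome, 10 runs of genes that are known to be copied together were described, and the spread of fold changes within a run ranged from narrow to wide. psbD and psbC stood at -1.23 and -1.36, and atpB and atpE at -1.65 and -1.53. The run psbE, psbF, psbL, psbJ lay from -1.93 to -1.19, psaA, psaB, rps14 from -1.22 to -0.72, and psbB, psbT, psbH, petB, petD from -1.49 to -0.66. ndhC, ndhK, ndhJ lay from -2.80 to -0.79, and the run from ndhH to ndhD, with 0 of 7 called, from -1.50 to 0.01. In the run rpoB, rpoC1, rpoC2 the log2 fold changes were -0.37, -0.46 and -1.20. In the run rps2, atpI, atpH, atpF, atpA the ribosomal gene rps2 stood at 0.72 ± 0.761 (SE) and did not pass, while the 4 ATP synthase genes fell by 1.51, 1.06, 1.22 and 1.39. In the run that starts with rpl23.1 and ends with rpoA, the genes rpl23.1, rpl2.1, rps19, rpl22, rps3, rpl16, rpl14, rpl36 and rpoA stood at -1.83, -1.30, -0.94, -0.13, 0.24, -0.35, -0.73, -0.14 and -1.04. Of these, rpl23.1, rpl2.1, rpl14 and rpoA passed the test. Differences between neighbours were not tested.

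Besides atpB and atpE, 2 pairs of neighbours overlap on the same strand, and reads there could count for either gene, since the counting rule is not given. The psbD and psbC reading frames share 53 bases (Pltd:33720-33772, plus strand) and rpl22 and rps3 share 16 (Pltd:83467-83482, minus strand), shown with the start codon of the second gene and the stop codon of the first in capitals.
psbD and psbC overlap: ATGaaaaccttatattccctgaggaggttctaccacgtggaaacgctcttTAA
rpl22 and rps3 overlap: ATGggacaaaaaaTAA

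**Figure D4:**
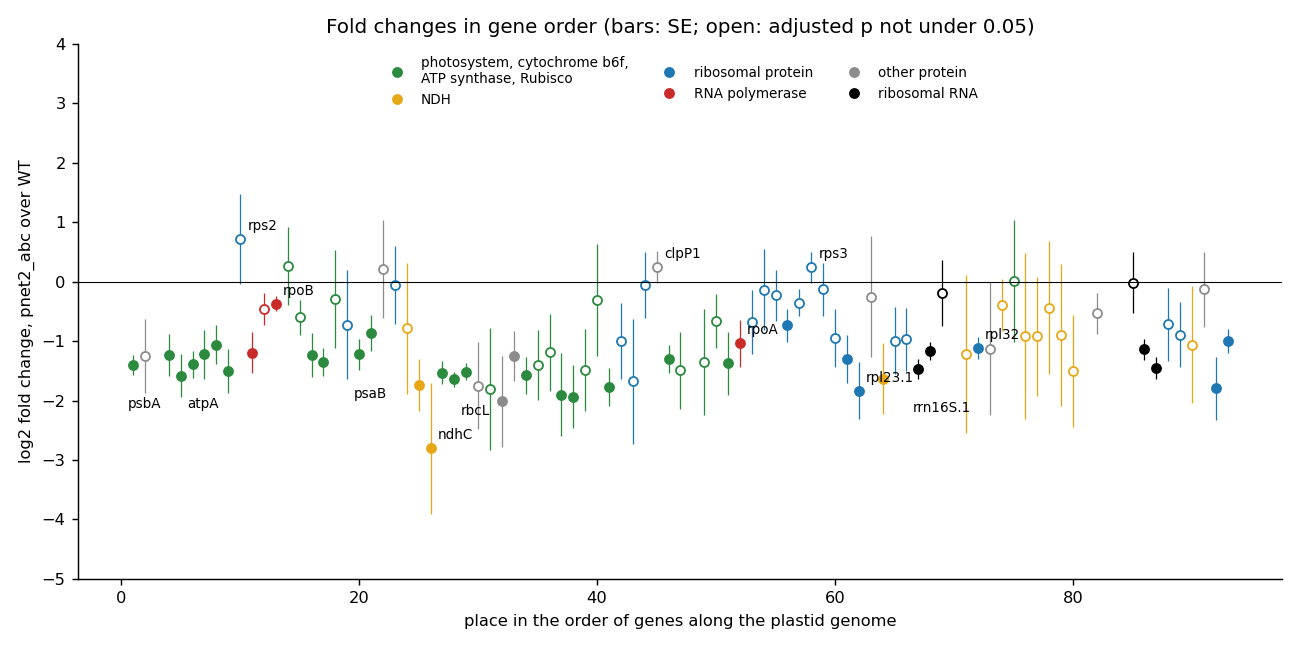
Log2 fold change of pnet2_abc over WT (y axis) for the tested protein-coding and ribosomal RNA genes that the reference places on the plastid genome. Genes stand in the order of their start (x axis), with SE bars and colours for gene groups. The trans-spliced part rps12A, at 1.08 and not called, is not drawn. Most points lie below 0, and rps2, rps3 and clpP1 are labelled open points above it.

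Within the plastid protein-coding counts the balance of the groups shifted in pnet2_abc. The polymerase genes held 16.7%, 13.1% and 13.4% of these counts in WT, 17.7%, 15.3% and 15.3% in pnet2_ac, 15.14%, 13.45% and 14.14% in pnet2_bc and 20.3%, 21.7% and 20.7% in pnet2_abc. The ATP synthase genes went the other way, from 20.6%, 21.1% and 21.1% in WT to 14.88%, 14.85% and 15.10% in pnet2_abc. For both groups the 3 pnet2_abc libraries lay outside the range of the other 9. The ribosomal protein genes held 22.3% ± 2.41 in WT and 27.0% ± 2.14 in pnet2_abc (SD, n = 3), just outside that range, and the photosystem genes 24.8% ± 1.16 and 20.1% ± 1.39, overlapping pnet2_ac but not WT. The NDH share of pnet2_abc overlapped that of WT, at 2.59% ± 0.126 in WT and 2.49% ± 0.664 in pnet2_abc. Some shares of these counts in pnet2_bc also lay outside the WT range. The photosystem share was lower there, at 23.04% ± 0.105 (SD, n = 3). The ATP synthase and NDH shares were higher there, at 21.81% ± 0.582 and 2.956% ± 0.198 of these counts. Of these counts 44.9% lay on the 6 most counted genes, so the shares rest on few genes: without rpoB, atpB and psbA the polymerase share of pnet2_abc was 1.18 times that of WT, against 1.45 times with them.

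rpoB and atpB are the most counted of the polymerase and ATP synthase genes, so their ratio draws again on counts in those shares. It was 0.934, 0.791 and 0.855 in WT, 1.05, 1.01 and 1.09 in pnet2_ac, 0.957, 0.916 and 0.787 in pnet2_bc and 1.81, 2.36 and 2.12 in pnet2_abc. This pair was chosen after its values were seen and carries no test. The polymerase genes did not keep 1 ratio among themselves: counts of rpoC2 over rpoB were 0.152, 0.166 and 0.116 in WT and 0.102, 0.0336 and 0.110 in pnet2_abc, without overlap with WT. When libraries were scaled to their plastid protein-coding counts, edgeR called 5 plastid genes higher and 5 lower in pnet2_abc against WT, but that scaling called 63.2% of all genes higher and 10.3% lower. The 5 higher were rpoB (0.66, edgeR adjusted p = 0.000309), rps3 (1.29), clpP1 (1.26), rpl16 (0.66) and rpl22 (0.99), and the 5 lower were atpB (-0.62), atpE (-0.51), rbcL (-0.48), psaJ (-0.73) and rrn16S.1 (-0.44).

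**Figure D5:**
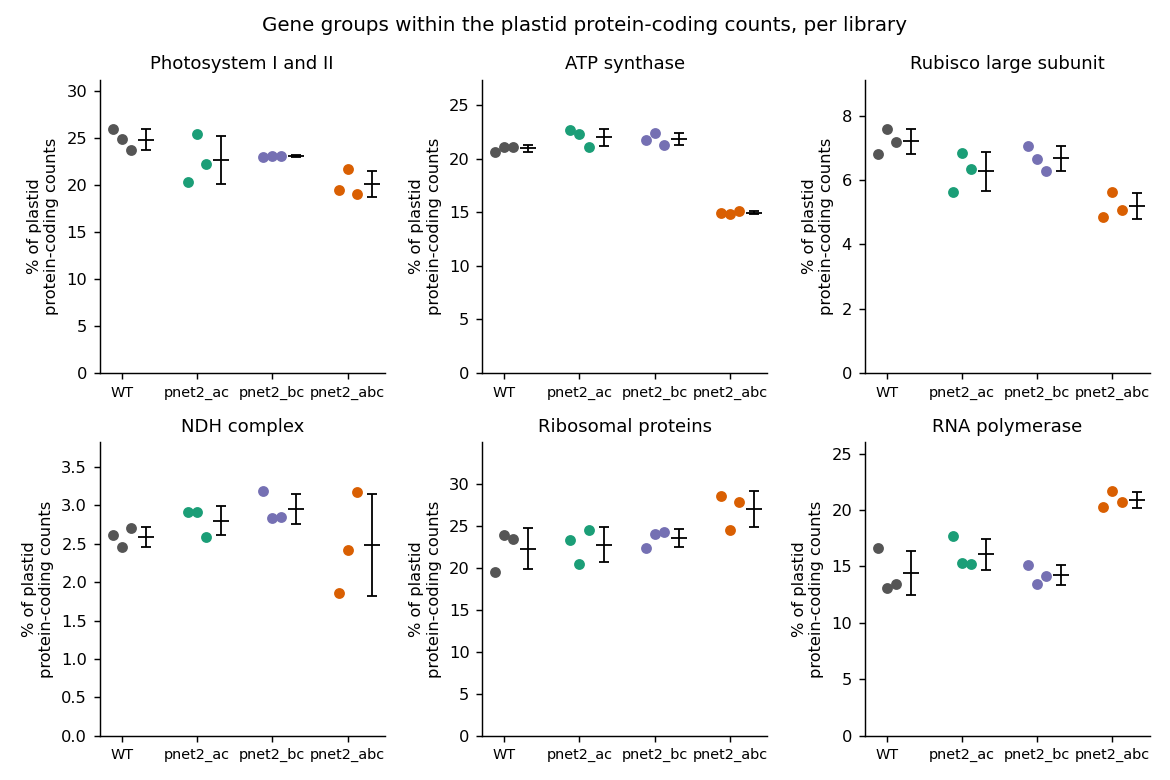
Share of the plastid protein-coding counts (y axis, percent) held by 6 gene groups in each library, with the mean ± SD of 3 libraries beside the points. The pnet2_abc libraries lie above all 9 others for the polymerase genes and below all 9 for the ATP synthase genes.

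Sequence features of the reading frames were compared with the fold changes. Across the 82 tested protein-coding genes, Spearman's rho with the log2 fold change in pnet2_abc was 0.04 for the GC content, 0.02 for the length, 0.09 for the longest run of A and -0.26 for the WT level in TPM. Genes share libraries and many share a transcript, so these values are descriptions and carry no test. The WT libraries enter both the WT level and the fold change, so the value of -0.26 cannot tell a relation from noise that both share. The median GC content was 39.9% for the photosystem genes, 35.5% for the NDH genes, 37.9% for the ribosomal proteins and 37.1% for the polymerase genes.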

How the data were processed

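The authors deposited a table of raw read counts per gene and a table of TPM values for the same 12 libraries, per the file headers. Per the submitters' processing notes, HISAT2 2.0.4, HTSeq 0.6.1p1 and TAIR10 were used; no source used here gives their roles or how reads that fit several places were treated. The deposited TPM values equal the counts divided by the listed transcript length and scaled per library (largest relative difference 4.9e-07), so they are no second quantification.

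Of the 133 IDs, 94 were given TAIR symbols, 86 of them with the transcript length and exon number of the RefSeq plastid annotation of TAIR10.1 (3 are parts of trans-spliced rps12, 5 start elsewhere). edgeR 4.0.16 in R 4.3.3 was run with filterByExpr, TMM scaling, 1 quasi-likelihood model over 12 libraries (8 residual degrees of freedom) and Benjamini-Hochberg adjustment over 23330 genes; SE comes from the test statistic. DESeq2 1.42.0 and limma 3.58.1 (log2 of TPM plus 1 or 0.1) were alternatives. The code was tested on simulated data. Named genes were those with the highest TPM and the largest called changes of each group, besides a list of polymerase and other genes. Members and lists were chosen with earlier results of these data known. Replicate libraries differed beyond sampling noise (chi-square over its degrees of freedom, 31.2 to 48.9), and deviations of same-numbered libraries correlated at -0.03 to 0.07, so they were not paired. Single values of some genes are not reported here.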

Additional observations from a re-analysis of the deposited data

How the results depend on the processing

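Depth limits most plastid messenger RNAs, which stood under 10 CPM. In pnet2_abc against each other genotype, no plastid gene was called higher by edgeR under RLE, nuclear-only or library-size scaling, either low-count filter or any left-out library, nor by DESeq2; limma on TPM called 1 higher and 49 or 48 lower against pnet2_bc. Library size alone moved the median of all genes to 0.20 and that of the plastid genes to -0.92 in pnet2_abc against WT. A mean of at least 5 CPM left 12 plastid genes, all lower in each of these 3 comparisons (12, 12 and 12), with a median of -1.38 against WT. On log2 of TPM plus 1 the medians against WT, pnet2_ac and pnet2_bc were -0.56, -0.48 and -0.66, and on TPM plus 0.1 -0.88, -0.86 and -0.99. Both TPM fits called 1 gene, ATCG00210, higher in pnet2_bc against WT.

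With plastid counts as library size, 7, 4 and 9 genes were called in pnet2_abc against WT, pnet2_ac and pnet2_bc (7, 2 and 5 of them higher), with medians of 0.11, -0.08 and -0.17, and the medians in pnet2_ac and pnet2_bc against WT were 0.22 and 0.36. With plastid protein-coding counts, chosen after seeing the data, 10, 7 and 12 were called (5, 4 and 7 higher), with medians of -0.08, -0.04 and -0.03. These scalings measure a gene against the other plastid genes by construction, and some directions turned. With plastid counts rpoC2, rpoC1, rpoB, rpoA, rpl32 and psbM stood at 0.09, 0.77, 0.88, 0.27, 0.16 and 0.63 against WT, rpoB and rps3 at 0.31 and 0.81 against pnet2_ac, and rpoB, rpoA, psbM and rps3 at 0.57, 0.03, 0.34 and 0.81 against pnet2_bc. With plastid protein-coding counts rpoB, rpoC1 and psbM stood at 0.66, 0.54 and 0.42 against WT (rpoC1 and psbM not called there or with TMM), rpoC1, rpoB, rps3 and rpl32 at 0.74, 0.37, 0.87 and 0.02 against pnet2_ac, and rpoC1, rpoB, rpoA, psbM, rps3 and rpl32 at 0.68, 0.67, 0.07, 0.45, 0.92 and 0.03 against pnet2_bc.

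Leaving out 1 library gave 29 to 42, 28 to 36 and 33 to 42 called genes in pnet2_abc against WT, pnet2_ac and pnet2_bc, with medians of -1.28 to -0.97, -1.10 to -0.95 and -1.27 to -1.13. For pnet2_ac and pnet2_bc against WT 0 were called and the medians were -0.20 to 0.09 and 0.01 to 0.33. With the replicate number as a block 36, 33 and 38 genes were called in pnet2_abc and 0 in the double mutants. The labels do not say what a number marks, and 9 of 12 libraries correlated best with their own number; the block moved no count by over 1.5 times.

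Of the shares, the plastid share without ribosomal and transfer RNA was 1.04 and 1.11 times WT in pnet2_ac and pnet2_bc. The mitochondrial share by TPM was 1.30, 1.16 and 0.924 times WT in pnet2_ac, pnet2_bc and pnet2_abc. The NDH share without inverted-repeat genes was 1.17 and 1.28 times WT in pnet2_ac and pnet2_bc, and by TPM 1.25 in pnet2_bc. Without rpoB, atpB and psbA the polymerase share was 0.924 and 1.18 times WT in pnet2_ac and pnet2_abc. The cause of these moves was not tested. Mitochondrial ribosomal and transfer RNA genes are not named in the sources used here, so that alternative was not run for them.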

Other observations

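Identical copies of genes in the inverted repeat did not receive equal counts. Over all libraries, the first copy of rrn16S held 44.1% of the counts of both copies, with 43.4% to 46.0% by library, and that of rrn23S 44.7%, with 43.8% to 46.6%. The first copy of rpl2 held 38.7%, from 22.8% to 44.0% by library, and that of rpl23 55.2%, from 51.2% to 61.1%. How reads were assigned to a copy is not given in the sources used here.

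Some genes with under 1 CPM varied widely between replicate libraries, and rps14 and ndhA, chosen after their values were seen, are examples. rps14 had 0.000, 1.08 and 0.675 CPM in the 3 WT libraries and 0.368, 0.326 and 0.362 CPM in pnet2_abc. ndhA had 0.368, 0.000 and 0.148 CPM in WT and 0.204, 0.000 and 0.0723 CPM in pnet2_abc. edgeR's moderated estimate of the coefficient of variation, which leaves out counting error, was taken by level. Its median over tested plastid genes was 0.47 from 0.05 to 1 CPM, 0.26 from 1 to 10 CPM and 0.15 from 10 to 1000 CPM. For the other tested genes at these levels it was 0.69, 0.23 and 0.1.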
